A study of Saccharomyces cerevisiae BY4741 with 8 samples.

Results

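The genes described here encode the factors that start, extend and end protein synthesis on cytosolic ribosomes of *Saccharomyces cerevisiae*. They were chosen by gene identifier and comprise 38 of the 5782 genes in the deposited tables: 26 initiation factor genes, 10 elongation factor genes and 2 termination factor genes. mRNA of the haploid laboratory strain BY4741 and of its *YRR1* deletion strain was sequenced after growth in synthetic complete medium (SD) with or without 5 mM vanillin, an aldehyde released from lignin that inhibits yeast growth. The 4 groups, each of 2 replicate cultures, were BY4741(*yrr1*Δ) with vanillin, BY4741 with vanillin, BY4741(*yrr1*Δ) in SD and BY4741 in SD. In BY4741(*yrr1*Δ) the coding region of the transcription factor Yrr1p was replaced with a *KanMX* cassette, and the number of independent deletion clones is not given. Both strains are *MATa* and carry *his3Δ1*, *leu2Δ* and *ura3Δ* and a methionine marker that the study's methods give as *met5Δ*. Cells were started at an OD600 of 0.2 and taken in log phase at 1.6 to 2.0.

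Translation initiation in yeast brings the 40S ribosomal subunit, the initiator tRNA and the mRNA together. eIF2 carries the initiator tRNA in its GTP-bound form and eIF2B reloads it with GTP, eIF4E, eIF4G and eIF4A bring in the capped mRNA, eIF3 organises the complex on the small subunit, and eIF1, eIF1A and eIF5 select the start codon before eIF5B joins the large subunit. eEF1A then delivers aminoacyl-tRNA, eEF2 moves the ribosome along, the fungal ATPase eEF3 clears the exit site, and eRF1 with eRF3 releases the finished protein.

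Counts of *YRR1* matched the strain labels. Each library summed to between 2195324 and 2453837 expected counts, estimates of the reads from each gene without normalization. *YRR1* had 0 and 1 counts with vanillin and 2 and 1 in SD in BY4741(*yrr1*Δ), against 82 and 100 with vanillin and 77 and 73 in SD in BY4741. The auxotrophic markers *LEU2* and *URA3* had 0 to 2 counts in every library, and *MET17*, also named *MET15*, had 0 to 9. *HIS3*, of which *his3Δ1* removes only part, had 51 to 181. Replicates differed by more than counting error in every group, with a chi-square per degree of freedom of 6.70 to 18.7, so all 8 were separate libraries. Levels below are CPM, counts scaled to library size with TMM factors, and levels are compared between genes only as FPKM, which also divides by gene length.

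The mRNA levels of the factors spanned a wide range. *TEF2* and *TEF1*, which both encode eEF1A, had mean FPKM of 13850 and 9082 over the 8 libraries and were the 5th and 10th highest of all 5782 genes. Together they gave 49.9 to 59.3% of the counts of all 38 genes, which in turn made up 4.56 to 5.58% of a library. *EFB1*, the exchange factor subunit of eEF1B, followed with 2107 FPKM. Among the initiation factors the small start-codon factor *TIF11* (eIF1A) was highest with 1334 FPKM, and *TIF4632*, the second eIF4G gene, was lowest with 43.6 FPKM. The 5 subunits of eIF2B, which form one complex, lay within 1.47-fold of each other, with *GCD7* at 105 FPKM and *GCD2* at 71.4 FPKM. The 6 eIF3 genes spread over 5.05-fold, with *TIF35* at 416 FPKM and *NIP1*, which encodes the eIF3c subunit, at 82.5 FPKM. The 2 release factor genes were close, at 284 FPKM for *SUP45* (eRF1) and 220.5 FPKM for *SUP35* (eRF3).

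Several factors are encoded by gene pairs, and the sequence of a pair decides how well its members can be counted apart. In the R64 coding sequences *TEF1* and *TEF2* differ at 2 of 1377 bases, *EFT1* and *EFT2* (eEF2) at 4 of 2529 and *TIF1* and *TIF2* (eIF4A) at 6 of 1188. A fragment of 100 bases is identical between the copies at 86.5%, 83.5% and 74.1% of positions, so the split of reads between these copies is uncertain and the pairs were also summed. The deposited gene lengths are those of the coding sequences. The eIF5A genes *HYP2* and *ANB1* have 90.9% identity with no identical stretch of 100 bases, *TEF4* and *CAM1* (eEF1Bgamma) 73%, and *TIF4631* and *TIF4632* (eIF4G) 66.8%, and their reads can be told apart. The stretch around the first difference between *TEF1* (chrXVI:701305-701405, plus strand) and *TEF2* (chrII:478382-478482, plus strand) shows why their reads are hard to separate, and the first 150 coding bases of *HYP2* (chrV:85676-85825, plus strand) and *ANB1* (chrX:525232-525381, minus strand) show a pair that is separable at 8 positions. Capitals mark the differing bases.
TEF1: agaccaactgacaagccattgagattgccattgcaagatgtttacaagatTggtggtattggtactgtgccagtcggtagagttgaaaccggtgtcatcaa
TEF2: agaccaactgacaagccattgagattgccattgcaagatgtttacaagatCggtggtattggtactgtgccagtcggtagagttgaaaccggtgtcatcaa
HYP2: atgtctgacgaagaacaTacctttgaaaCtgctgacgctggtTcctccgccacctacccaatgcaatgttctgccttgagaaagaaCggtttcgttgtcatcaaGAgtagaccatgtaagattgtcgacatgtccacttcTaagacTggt
ANB1: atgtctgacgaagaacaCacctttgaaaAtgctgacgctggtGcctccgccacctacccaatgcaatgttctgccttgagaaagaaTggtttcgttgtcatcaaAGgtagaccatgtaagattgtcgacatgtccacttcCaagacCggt

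*HYP2* and *ANB1* encode near-identical eIF5A proteins, of which *ANB1* is known as the form made without oxygen. *ANB1* had 3.59 and 1.96 CPM in BY4741(*yrr1*Δ) with vanillin, 1.89 and 2.33 CPM in BY4741 with vanillin, 5.29 and 2.53 CPM in BY4741(*yrr1*Δ) in SD and 3.02 and 3.46 CPM in BY4741 in SD. It was the only one of the 38 genes removed by the filter on low counts, so 37 genes were tested. *HYP2* was 121 to 267 times as high as *ANB1* on the FPKM scale in every library. The upstream windows of the pair differ in a textbook feature. The repressor Rox1p acts on *ANB1* in air through sites with the core ATTGTT, which was found 4 times in the *ANB1* window and not in that of *HYP2*. The window runs from 350 to 101 bases before the start codon, both strands were searched, and 27.6% of the 5472 windows of tested genes hold this core. The windows are chrV:85326-85575 on the plus strand for *HYP2*, which overlaps the coding sequence of YEL035C, and chrX:525482-525731 on the minus strand for *ANB1*, with the core in capitals.
HYP2: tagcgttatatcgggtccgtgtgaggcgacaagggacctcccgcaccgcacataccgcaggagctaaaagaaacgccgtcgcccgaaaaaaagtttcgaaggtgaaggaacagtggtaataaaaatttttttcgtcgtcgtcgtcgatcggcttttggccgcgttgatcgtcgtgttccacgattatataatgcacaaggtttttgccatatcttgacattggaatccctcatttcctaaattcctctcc
ANB1: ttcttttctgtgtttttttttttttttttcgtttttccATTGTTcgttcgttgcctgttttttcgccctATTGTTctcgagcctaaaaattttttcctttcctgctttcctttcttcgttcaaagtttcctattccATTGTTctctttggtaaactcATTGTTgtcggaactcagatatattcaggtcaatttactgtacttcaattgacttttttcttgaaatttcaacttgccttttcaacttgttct

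With vanillin in the medium, mRNAs of translation factors were mostly higher in BY4741(*yrr1*Δ) than in BY4741. The log2 fold change was above 0 for 30 of the 37 genes, against 48.8% of all genes tested, and its median was 0.35, against -0.01 over all genes. All 5 eIF2B genes were above 0 (median 0.44), as were 5 of 6 eIF3 genes (median 0.46), 7 of 8 genes of mRNA binding (median 0.35), 2 of 3 eIF2 genes (median 0.45) and both release factor genes (median 0.34). The 9 elongation factor genes tested had a median of 0.13 and the 4 start-codon genes one of 0.06. No single gene passed. Of the 37 genes, 0 reached an FDR of 0.05 in edgeR's quasi-likelihood fit (Benjamini-Hochberg over 5506 genes), where 0.618% of all genes did, and 0 met the study's limits of a 2-fold change and an FDR of 0.001, as did 0% of all genes. At an unadjusted p under 0.05 there were 12 genes higher and 1 lower, against 9.75% and 13.2% of all genes. The 2 libraries of one strain lay wholly above those of the other for 23 of the 37 genes, against 27.5% of all genes, and wholly below for 2, against 30.1%. The smallest FDR was that of *NIP1*, 0.0653. DESeq2 called 4 of the 37 genes and 4.86% of all genes, limma on log2(FPKM + 1) called 1 and 0.908%, and edgeR on the 4 vanillin libraries alone called 6 and 5.8%. Fewer factor genes reached an unadjusted p under 0.05 when a vanillin library was left out. Such a refit leaves 1 culture in a group, and the share of all genes at that limit is not given. The median was 0.37 without replicate 2 of BY4741 with vanillin, against 0.01 over all genes. It was 0.28 without its replicate 1 and 0.28 without the vanillin replicate 2 of BY4741(*yrr1*Δ), against -0.02 over all genes in each.

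**Figure D1:**
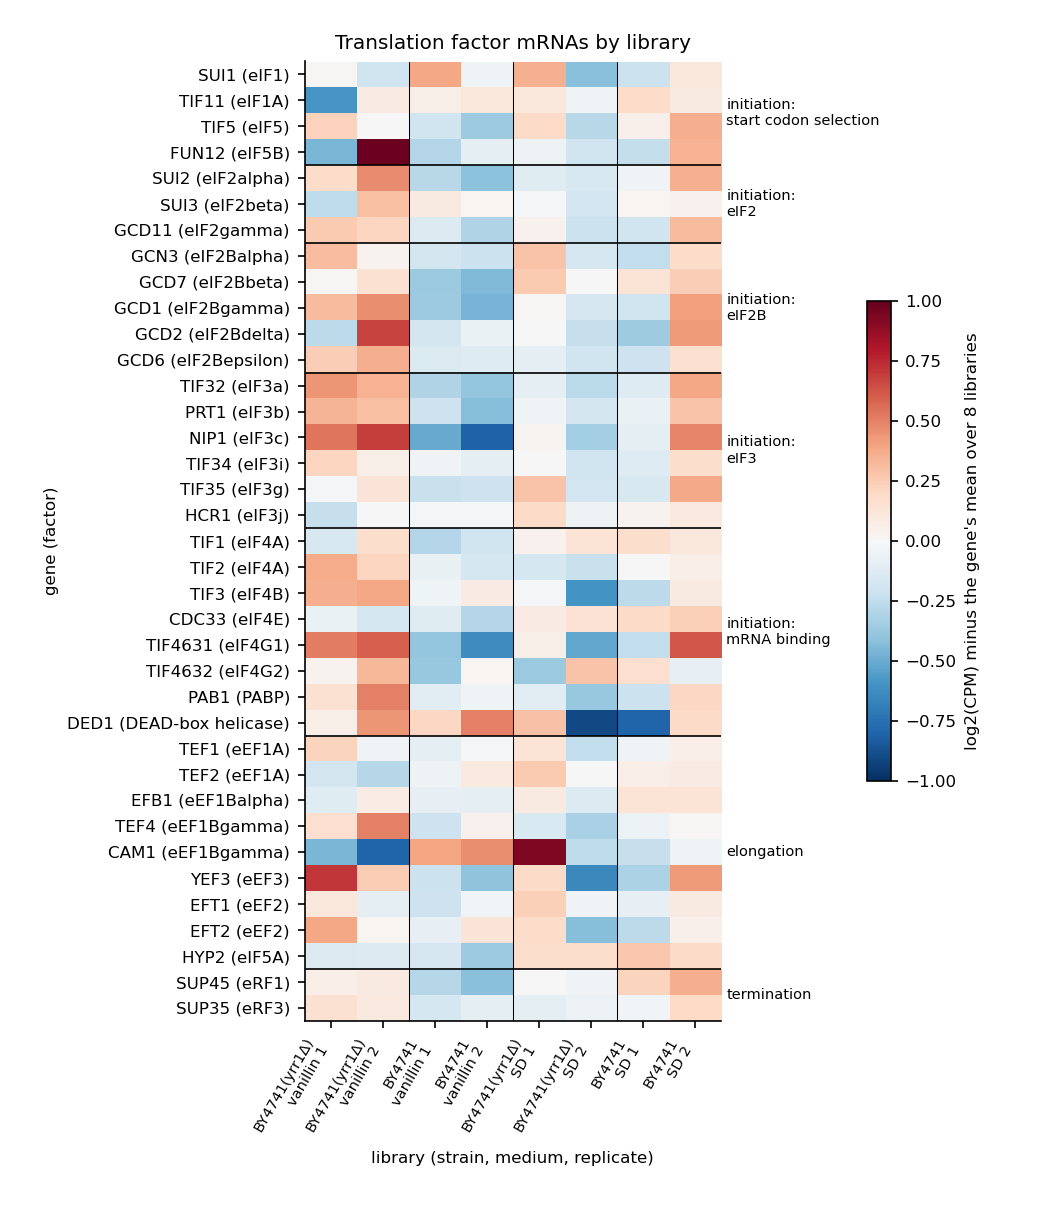
Heat map of the 37 translation factor genes tested (rows, grouped by role) in the 8 libraries (columns), with colour for log2(CPM) minus the mean of the gene over the 8 libraries, on a scale that ends at -1 and 1. The first 2 columns, BY4741(*yrr1*Δ) with vanillin, are mostly red and the next 2, BY4741 with vanillin, mostly blue, with *CAM1* the other way round.

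*NIP1* and *TIF4631* led the initiation factors. Both were named by the study in its comparison of the strains with vanillin, so their direction here is not independent of that choice. *NIP1* (YMR309C, chrXIII:892988-895426, minus strand) had 256 and 286 CPM in BY4741(*yrr1*Δ) with vanillin, against 125 and 101 CPM in BY4741 with vanillin. In SD it had 180.0 and 139 CPM in BY4741(*yrr1*Δ), against 165 and 248.5 CPM in BY4741. The vanillin libraries of the strains were well apart and the SD libraries overlapped, with replicate 2 of BY4741 nearly as high as the deletion strain with vanillin. Its log2 fold change between the strains was 1.26 ± 0.25 (SE) with vanillin (FDR = 0.0653 from edgeR's test) and -0.38 ± 0.24 in SD (FDR = 1.00). With vanillin, DESeq2 called it at an FDR of 0.0012, limma on FPKM at 0.0397 and edgeR on library size alone at 0.0407. In the limma and library-size fits the median of all genes was itself 0.14.

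*TIF4631* (YGR162W, chrVII:824059-826917, plus strand) encodes the main eIF4G, the scaffold that joins cap-binding protein, helicase and poly(A)-binding protein. It had 446 and 475 CPM in BY4741(*yrr1*Δ) with vanillin, against 238 and 203 CPM in BY4741 with vanillin. In SD it had 326 and 219 CPM in BY4741(*yrr1*Δ), against 264 and 481 CPM in BY4741. The pattern over the 8 libraries was that of *NIP1*, high in both vanillin cultures of the deletion strain and in 1 SD culture of BY4741. The log2 fold change between the strains with vanillin was 1.06 ± 0.30 (edgeR FDR = 0.106), and DESeq2 called it at an FDR of 0.0178. Its paralog *TIF4632* had 114 and 140 CPM in BY4741(*yrr1*Δ) with vanillin, against 85.4 and 113 CPM in BY4741 with vanillin, a log2 fold change of 0.35 ± 0.26 (edgeR FDR = 0.441). The ratio of *TIF4631* to *TIF4632* on the FPKM scale ran from 1.55 to 4.38 over the libraries, and both ends came from SD cultures.

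Other eIF3 and eIF2 pathway genes shared this order. *TIF32* (YBR079C, chrII:395383-398277, minus strand), the eIF3a subunit, had 449 and 421 CPM in BY4741(*yrr1*Δ) with vanillin, against 268 and 251 CPM in BY4741 with vanillin, and its log2 fold change was 0.75 ± 0.20 (edgeR FDR = 0.102). *PRT1* (YOR361C), the eIF3b subunit, had 440 and 429 CPM, against 300.5 and 259 CPM in BY4741, a log2 fold change of 0.64 ± 0.18 (edgeR FDR = 0.114). For both genes the 2 vanillin libraries of the deletion strain lay above those of BY4741. The small eIF3 subunits differed less, with log2 fold changes of 0.20 for *TIF34*, 0.28 for *TIF35* and -0.09 for *HCR1*. *SUI2* (YJR007W), which encodes the eIF2alpha subunit phosphorylated by the kinase Gcn2p, had 115 and 140.5 CPM in BY4741(*yrr1*Δ) with vanillin, against 83.5 and 76.5 CPM in BY4741 with vanillin (log2 fold change 0.68 ± 0.20, edgeR FDR = 0.123). *GCD1* (YOR260W), the eIF2Bgamma subunit, had 141 and 156 CPM, against 88.2 and 82.1 CPM in BY4741 (log2 fold change 0.80 ± 0.23, edgeR FDR = 0.110). The other 4 eIF2B genes lay between 0.38 for *GCN3* and 0.49 for *GCD7*. *SUI3* (eIF2beta) stood at -0.00 and *GCD11* (eIF2gamma) at 0.45. Among the start-codon factors *TIF5* (eIF5) and *FUN12* (eIF5B) were at 0.40 and 0.62, while the small factors *SUI1* (eIF1) and *TIF11* were at -0.28 and -0.30. Among the mRNA-binding factors *PAB1*, the poly(A)-binding protein, was at 0.41, *TIF3* (eIF4B) at 0.35, *CDC33* (eIF4E) at 0.08 and the helicase *DED1* at -0.10. The release factors *SUP45* and *SUP35* were at 0.43 and 0.26.

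**Figure D2:**
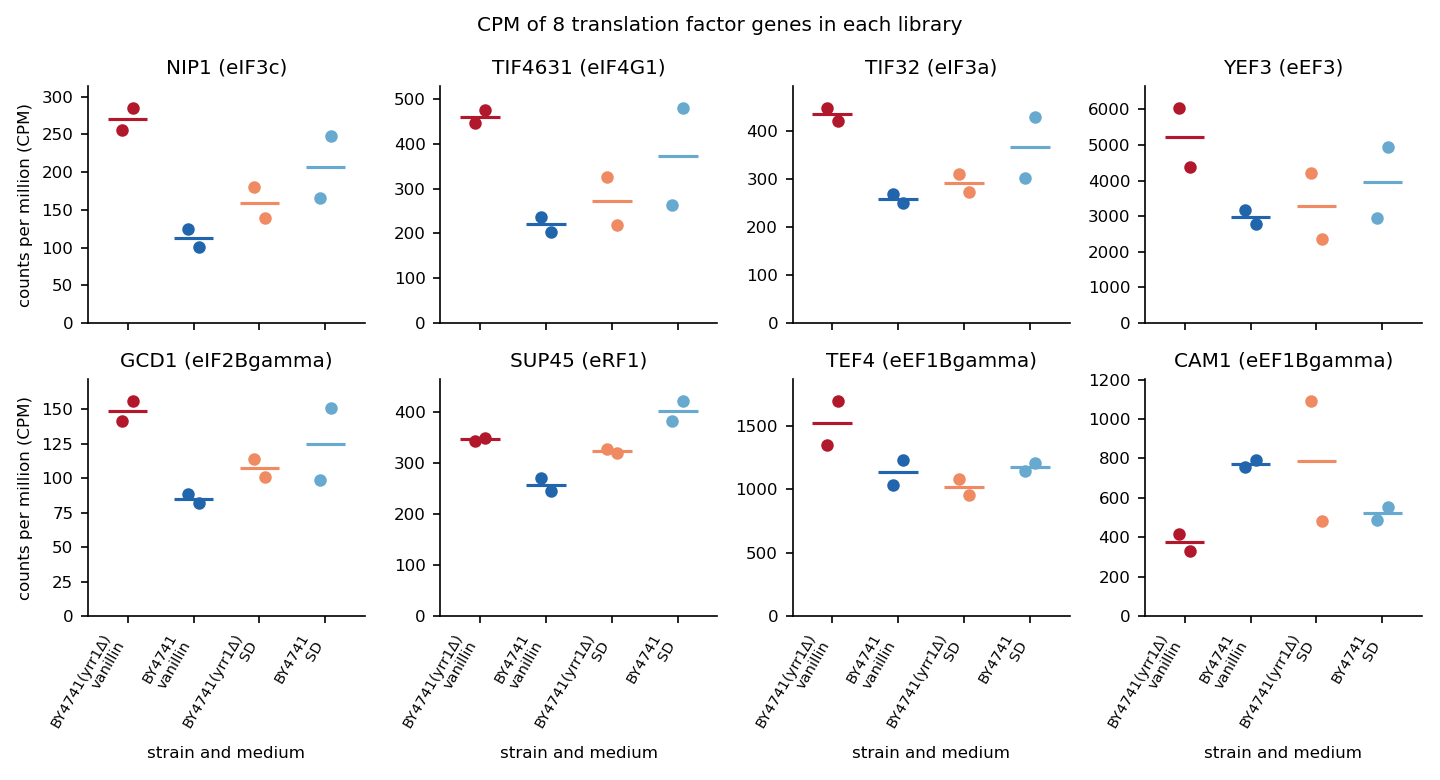
CPM of 8 translation factor genes in each library (points) with the mean of the 2 replicates (bars), by strain and medium, on axes that start at 0. *NIP1*, *TIF4631*, *TIF32*, *YEF3* and *GCD1* have their highest mean in BY4741(*yrr1*Δ) with vanillin and their lowest in BY4741 with vanillin, and *CAM1* has its lowest points, 418 and 329 CPM, in BY4741(*yrr1*Δ) with vanillin.

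The 2 genes of eEF1Bgamma, a subunit of the exchange factor for eEF1A, lay in opposite directions. *CAM1* (YPL048W, chrXVI:464401-465648, plus strand) had 418 and 329 CPM in BY4741(*yrr1*Δ) with vanillin, against 756 and 792 CPM in BY4741 with vanillin, a log2 fold change of -1.05 ± 0.33 (edgeR FDR = 0.130). *TEF4* (YKL081W, chrXI:282891-284455, plus strand) had 1348 and 1701 CPM in BY4741(*yrr1*Δ) with vanillin, against 1037 and 1235 CPM in BY4741 with vanillin, a log2 fold change of 0.42 ± 0.18 (edgeR FDR = 0.203). Within each library the ratio of *TEF4* to *CAM1* on the FPKM scale was 3.25 and 5.21 in BY4741(*yrr1*Δ) with vanillin, against 1.38 and 1.57 in BY4741 with vanillin. It was 0.995 and 2.01 in BY4741(*yrr1*Δ) in SD, against 2.37 and 2.19 in BY4741 in SD. The deletion strain with vanillin thus had the 2 highest of the 8 ratios, and replicate 1 of the deletion strain in SD, where *CAM1* reached 1093 CPM, had the lowest. DESeq2 called *CAM1* between the strains with vanillin at an FDR of 0.0306. edgeR's test called it without either of the SD libraries of BY4741(*yrr1*Δ), at an FDR of 0.0416 without replicate 1 and of 0.0371 without replicate 2, although neither library enters the fold change.

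Among the other elongation factors, *YEF3* (YLR249W), the gene of eEF3, had 6050 and 4384 CPM in BY4741(*yrr1*Δ) with vanillin, against 3174 and 2788 CPM in BY4741 with vanillin. In SD it had 4207 and 2360 CPM in BY4741(*yrr1*Δ), against 2956 and 4941 CPM in BY4741. The vanillin libraries did not overlap (log2 fold change 0.81 ± 0.32, edgeR FDR = 0.189), and the SD replicates of each strain differed from each other by more than the strains did. The eEF1A pair summed had 28170 and 25090 CPM in BY4741(*yrr1*Δ) with vanillin, against 27040 and 29520 CPM in BY4741 with vanillin (log2 fold change -0.09, edgeR FDR = 0.798). Within the pair the ratio of *TEF1* to *TEF2* on the FPKM scale was 0.868 and 0.778 in BY4741(*yrr1*Δ) with vanillin, against 0.636 and 0.607 in BY4741 with vanillin, as far as their reads can be told apart. In SD it was 0.601 and 0.551 in BY4741(*yrr1*Δ), against 0.607 and 0.645 in BY4741. The deletion strain with vanillin thus had the 2 highest ratios of this pair as well. The eEF2 pair summed had 7031 and 5665 CPM, against 5245 and 6027 CPM in BY4741 (log2 fold change 0.17, edgeR FDR = 0.664). Neither of the most abundant elongation factors thus showed a strain difference larger than its replicate spread. The eIF4A pair summed had 1703 and 1817 CPM in BY4741(*yrr1*Δ) with vanillin, against 1392 and 1397 CPM in BY4741 with vanillin, a log2 fold change of 0.34 (edgeR FDR = 0.209). The log2 fold changes of *EFB1* and *HYP2* were 0.07 and 0.12. The helicase gene *DED1* and the eIF5B gene *FUN12* had the largest standard errors, 0.41 and 0.40 on the log2 scale. *FUN12* had 386 and 1049 CPM in the 2 cultures of BY4741(*yrr1*Δ) with vanillin, and *DED1* 348 and 152 CPM in those in SD.

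Without vanillin the order was not seen. In SD the log2 fold change of BY4741(*yrr1*Δ) against BY4741 was above 0 for 8 of the 37 genes, against 49% of all genes, with a median of -0.13 against -0.01 over all genes. At an FDR limit of 0.05 edgeR called 0 of the 37 genes and 0.0182% of all genes. At an unadjusted p under 0.05 there were 0, against 1.78% of all genes, and DESeq2 and limma each called 0, against 0.0182% and 0.0363% of all genes. The median log2 fold change was -0.285 without SD replicate 1 of BY4741, against 0.005 over all genes. Without SD replicate 2 of BY4741(*yrr1*Δ) it was -0.05, close to the -0.03 of all genes. For 9 genes both libraries of BY4741(*yrr1*Δ) were below both of BY4741, against 12.9% of all genes, and for 0 genes they were above. The release factor gene *SUP45* (YBR143C) had the smallest p, with 329 and 320.5 CPM in BY4741(*yrr1*Δ), against 383 and 423 CPM in BY4741, and a log2 fold change of -0.31 ± 0.16 (edgeR FDR = 1.00). *TIF32* had 310 and 274 CPM, against 302 and 430.0 CPM in BY4741 (log2 fold change -0.33 ± 0.20). *CAM1* had 1093 and 480.1 CPM, against 489 and 555.5 CPM in BY4741, so its libraries overlapped (log2 fold change 0.59 ± 0.33, edgeR FDR = 1.00). These cultures differed among themselves. Relative to the mean of the 8 libraries the median of the 37 genes was 0.05 and -0.20 in the 2 cultures of BY4741(*yrr1*Δ), against -0.08 and 0.19 in those of BY4741. The median log2 fold change was 0.00 without replicate 2 of BY4741 and -0.29 without replicate 1 of BY4741(*yrr1*Δ).

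**Figure D3:**
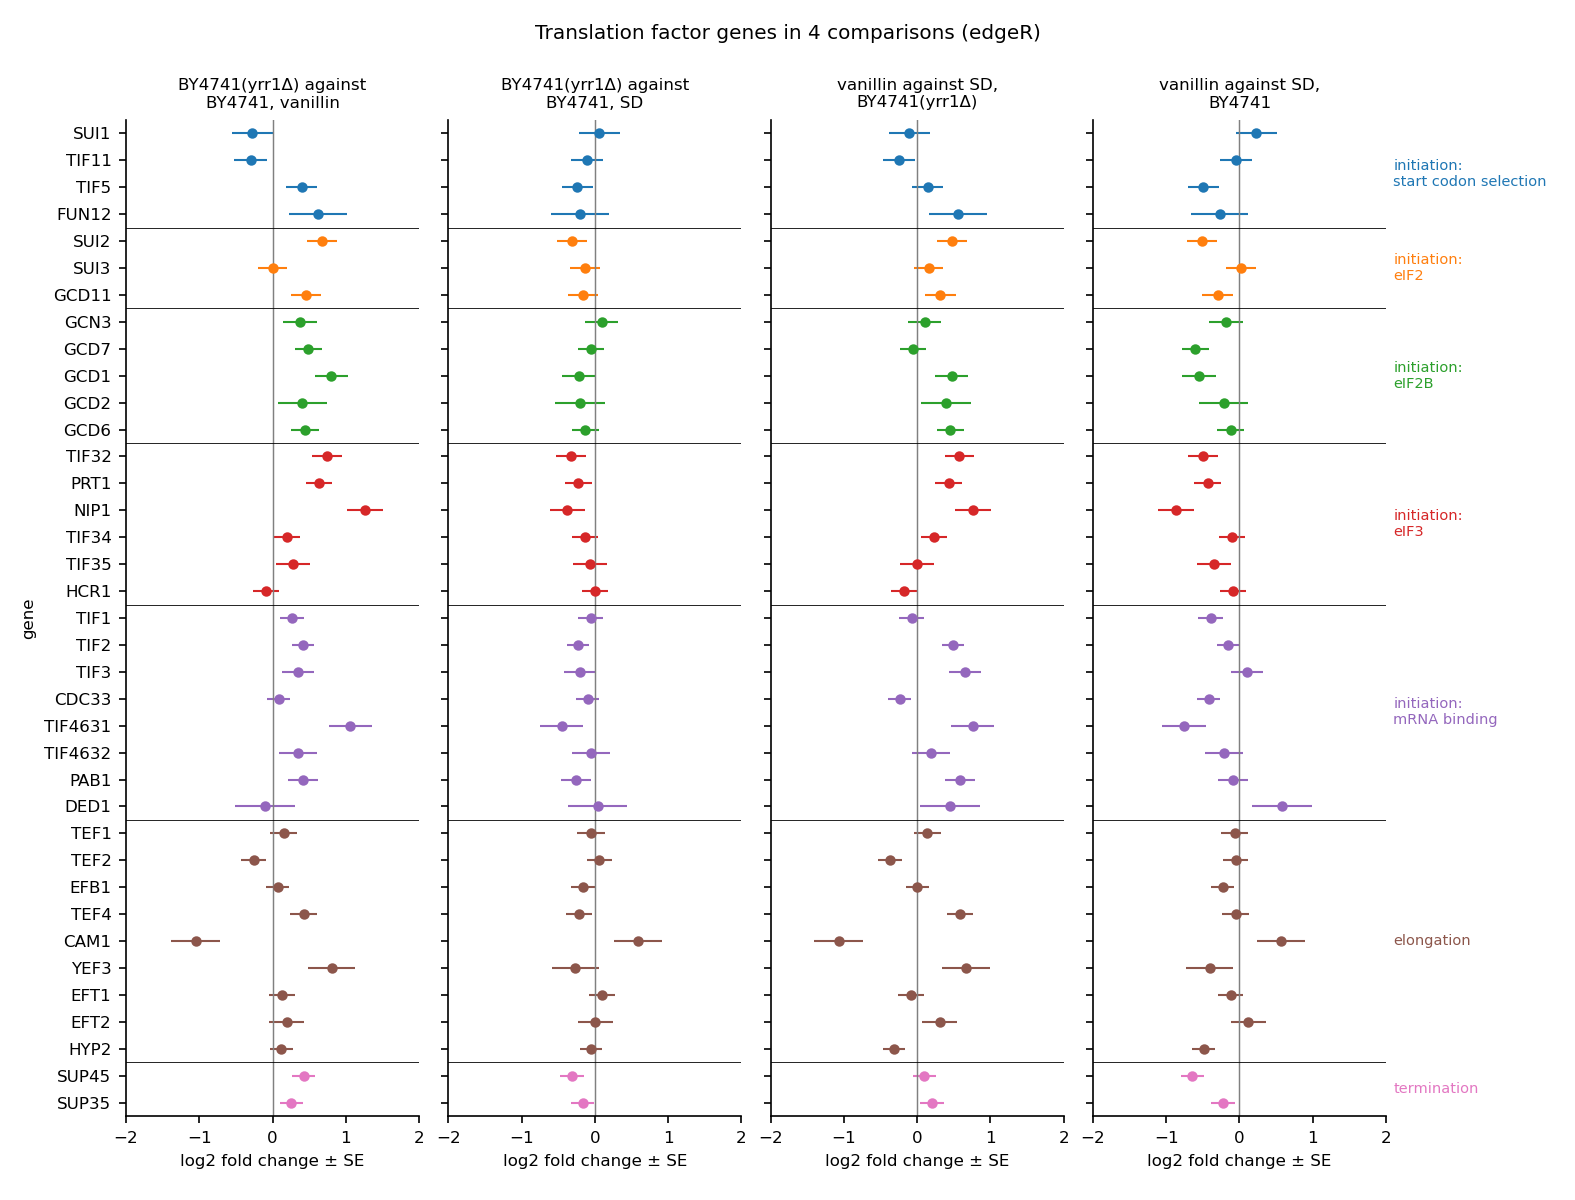
Log2 fold change (points) with its standard error (lines) of the 37 genes tested, grouped and coloured by role, in the 4 pairwise comparisons fitted with edgeR. Most genes of eIF2B, eIF3 and mRNA binding lie right of 0 between the strains with vanillin and left of 0 for vanillin in BY4741.

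The median response to vanillin had opposite signs in the 2 strains. In BY4741(*yrr1*Δ) the log2 fold change of vanillin against SD was above 0 for 26 of the 37 genes, against 51.3% of all genes, with a median of 0.20 against 0.01 over all genes. In BY4741 it was above 0 for 6 genes, against 47.9% of all genes, with a median of -0.22 against -0.02. Both medians rested partly on 1 SD library. Without SD replicate 2 of BY4741(*yrr1*Δ) the first was 0.08, with 21 of 38 genes above 0, and it was close to the 0.04 of all genes. Without SD replicate 2 of BY4741 the second was -0.06, with 13 of 38 above 0, against a median of 0.00 over all genes. The shares of all genes above 0 in these refits are not given. These comparisons share libraries with those between the strains, so they are not separate evidence. In BY4741(*yrr1*Δ), edgeR called 0 of the 37 genes at that limit and 11.2% of all genes. At an unadjusted p under 0.05 there were 10 higher and 1 lower, against 14.1% and 14.9% of all genes. Both vanillin libraries were above both SD libraries for 16 genes, against 28.4% of all genes, and below for 4, against 26.7%. DESeq2 called 1 of the 37 genes, against 12% of all genes, and limma on FPKM 4, against 11.6%. In BY4741, edgeR called 0 of the 37 genes and 3.14% of all genes, and at an unadjusted p under 0.05 there were 0 higher and 12 lower, against 10.9% and 7.41% of all genes. Both vanillin libraries were above both SD libraries for 2 genes, against 27.5% of all genes, and below for 17, against 26.6%. DESeq2 and limma called 1 of the 37 genes each, against 5.27% and 3.8% of all genes. Fewer factor genes reached an unadjusted p under 0.05 in the deletion strain without its replicate 2 in either medium. The same held in BY4741 without either of its vanillin libraries or without its SD replicate 2. Each of these refits leaves 1 culture in a group, and the shares of all genes at that limit are not given.

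In BY4741(*yrr1*Δ) the genes with the smallest p for vanillin were *CAM1*, *TIF2* and *TEF4*. *CAM1* had 418 and 329 CPM with vanillin, against 1093 and 480.1 CPM in SD, a log2 fold change of -1.07 ± 0.33 (edgeR FDR = 0.0695). This value rests on replicate 1 in SD. It was -0.38 without that library and -1.55 without SD replicate 2, where edgeR's test called it at an FDR of 0.0064. *TEF4* had 1348 and 1701 CPM with vanillin, against 1079 and 957 CPM in SD (log2 fold change 0.58 ± 0.18, edgeR FDR = 0.0705). *TIF2* had 909 and 817 CPM with vanillin, against 622 and 604 CPM in SD (log2 fold change 0.49 ± 0.15, edgeR FDR = 0.0705), but its split from *TIF1* is uncertain, with 74.1% of 100-base windows identical, and the summed pair stood at 0.18 (edgeR FDR = 0.457). *TIF3*, which encodes the helicase cofactor eIF4B, had 710.5 and 722 CPM with vanillin, against 545 and 366 CPM in SD (log2 fold change 0.65 ± 0.22, edgeR FDR = 0.0874). Both vanillin cultures were above both SD cultures for *TEF4*, *TIF2* and *TIF3*. *TIF3* was called without SD replicate 1 (log2 fold change 0.95, edgeR FDR = 0.0453). *PAB1*, the poly(A)-binding protein gene, had 738 and 941 CPM with vanillin, against 613 and 511 CPM in SD (log2 fold change 0.58 ± 0.21, edgeR FDR = 0.103). *NIP1* stood at 0.76 (edgeR FDR = 0.0766) and *TIF4631* at 0.76 (edgeR FDR = 0.129).

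In BY4741 the gene with the smallest p for vanillin was *SUP45*, the eRF1 gene. It had 270 and 246 CPM with vanillin, against 383 and 423 CPM in SD, a log2 fold change of -0.64 ± 0.16 (edgeR FDR = 0.0679). The limma fit on FPKM called it at an FDR of 0.0449, with the median of all genes itself at -0.12. *NIP1* had 125 and 101 CPM with vanillin, against 165 and 248.5 CPM in SD, a log2 fold change of -0.87 ± 0.25 (edgeR FDR = 0.0973). *GCD7*, the eIF2Bbeta subunit, had 80.2 and 76.5 CPM with vanillin, against 114 and 123 CPM in SD (log2 fold change -0.60 ± 0.18, edgeR FDR = 0.122). All 3 genes had non-overlapping libraries. The size for *NIP1* depends on SD replicate 2 of BY4741, since it was -0.55 without that library and -1.17 without SD replicate 1. *TIF4631* ran from -0.26 to -1.16 and *TIF32* from -0.22 to -0.76 under the same omissions.

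For 2 of the 37 genes all 4 vanillin libraries lay below all 4 SD libraries, against 7.81% of all genes, and for 0 they lay above, against 8.05%. The share is near that of all genes, and the 2 genes, *HYP2* and *CDC33*, are described as values. *HYP2*, which encodes the eIF5A that helps ribosomes through difficult peptide bonds, had 512 and 514 CPM with vanillin, against 640.0 and 638 CPM in SD, in BY4741(*yrr1*Δ). In BY4741 it had 504 and 440.1 CPM with vanillin, against 681 and 645 CPM in SD. *CDC33*, the cap-binding protein eIF4E, had 393 and 365 CPM with vanillin, against 436 and 456.5 CPM in SD, in BY4741(*yrr1*Δ), and 379 and 336 CPM with vanillin, against 470 and 487 CPM in SD, in BY4741. The log2 fold changes of *HYP2* were -0.32 ± 0.15 in BY4741(*yrr1*Δ) (edgeR FDR = 0.208) and -0.49 ± 0.15 in BY4741 (edgeR FDR = 0.140). Those of *CDC33* were -0.24 ± 0.16 in BY4741(*yrr1*Δ) (edgeR FDR = 0.351) and -0.42 ± 0.16 in BY4741 (edgeR FDR = 0.196), and none passed. These 2 genes were singled out after their values were seen.

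The difference between the 2 vanillin responses was fitted as an interaction, the log2 fold change in BY4741(*yrr1*Δ) minus that in BY4741. It was above 0 for 31 of the 37 genes, against 50.3% of all genes, with a median of 0.43 against 0.00 over all genes. At an FDR limit of 0.05 edgeR called 0 of the 37 genes and 0.0908% of all genes, and at an unadjusted p under 0.05 there were 11 above and 1 below 0, against 8.68% and 11.8% of all genes. DESeq2 called 3, against 3.92% of all genes, and limma on FPKM 0, against 0.109%. The values furthest from 0 were 1.63 ± 0.34 for *NIP1* (edgeR FDR = 0.101), -1.64 ± 0.46 for *CAM1* (edgeR FDR = 0.133) and 1.51 ± 0.42 for *TIF4631* (edgeR FDR = 0.128). DESeq2 called these 3 genes, at FDRs of 0.0061, 0.0169 and 0.0225. The value of *CAM1* was -2.11 without SD replicate 2 of BY4741(*yrr1*Δ), where edgeR's test called it at an FDR of 0.0269, and -0.92 without SD replicate 1.

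Genes that work beside these factors were examined in the same fit. The 22 cytosolic aminoacyl-tRNA synthetase genes, which charge the tRNAs, had medians of 0.34 between the strains with vanillin, -0.17 between them in SD, 0.19 for vanillin in BY4741(*yrr1*Δ) and -0.32 for vanillin in BY4741. The translation factors stood at 0.35, -0.13, 0.20 and -0.22 in the same order. Of the 22 synthetase genes 1 passed the test, for vanillin in BY4741(*yrr1*Δ), where 11.2% of all genes passed. *MES1*, the methionyl-tRNA synthetase, rose with vanillin in BY4741(*yrr1*Δ), where it had 407 and 384 CPM, against 232 and 219 CPM in SD (log2 fold change 0.81 ± 0.19, edgeR FDR = 0.0278). The 26 other translation factors and regulators had medians of 0.39, -0.13, 0.28 and -0.20. Of them *CLU1*, a protein found with eIF3, fell with vanillin in BY4741, with 218 and 223 CPM against 387 and 413 CPM in SD (log2 fold change -0.86 ± 0.18, edgeR FDR = 0.0360). It was 1 of 26 called there, where 3.14% of all genes were.

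In both pairwise comparisons that include BY4741(*yrr1*Δ) with vanillin, ribosomal protein and mitochondrial factor genes had medians of opposite sign to the cytosolic factors. In the other pairwise comparisons all these medians were below 0. The 134 cytosolic ribosomal protein genes tested had medians of -0.14 between the strains with vanillin, -0.09 in SD, -0.10 for vanillin in BY4741(*yrr1*Δ) and -0.07 for vanillin in BY4741. *RPL18B* fell in BY4741(*yrr1*Δ) with vanillin (log2 fold change -0.98, edgeR FDR = 0.0369) and *RPL9A* in BY4741 with vanillin (-1.01, edgeR FDR = 0.0284), and both have a near-identical copy whose reads could be split with theirs. Each was 1 of 134 called in its comparison, against 11.2% and 3.14% of all genes. The 8 mitochondrial translation factor genes had medians of -0.19, -0.01, -0.43 and -0.15. Of these *TUF1*, the mitochondrial counterpart of eEF1A, fell with vanillin in BY4741(*yrr1*Δ), with 469 and 446 CPM against 826 and 802 CPM in SD (log2 fold change -0.83 ± 0.16, edgeR FDR = 0.0125). It was 1 of 8 called there, where 11.2% of all genes were. Relative to the mean of the 8 libraries, the median of the cytosolic factors was 0.15 and 0.17 in BY4741(*yrr1*Δ) with vanillin, against -0.18 and -0.09 in BY4741 with vanillin. Among 8 hypoxic genes, whose list was set beside *ANB1*, *TIR1* rose and *CYC7* and *COX5B* fell with vanillin in BY4741(*yrr1*Δ), with FDRs of 0.0298, 0.0175 and 0.0043 from edgeR, in a comparison where 11.2% of all genes passed. Low counts limit *TIR1* and *CYC7*, since *CYC7* had 0.798 and 0 CPM with vanillin and *TIR1* had 3.37 and 1.26 CPM in SD in that strain. In BY4741 the log2 fold changes with vanillin were 1.67 for *TIR1*, -3.29 for *CYC7* and -0.11 for *COX5B*, and none passed.

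The upstream sequences of the factors share a short element. The ribosomal RNA processing element (RRPE), known from the promoters of yeast ribosome biogenesis genes and bound by Stb3p, has the core AAAATTTT, which reads the same on both strands. It was found from 350 to 101 bases before the start codon of 23 of the 37 genes tested (62.2%), against 478 of the 5472 windows of tested genes (8.74%). It was present in 10 of 22 synthetase genes (45.5%) and 11 of 134 ribosomal protein genes (8.21%). Other elements were less frequent among the factors. The PAC core GATGAG was found in 21.6% of the factors and 16% of all windows. The Gcn4p core TGACTC was found in 0 of the 37 genes and 7.33% of all windows, the Rap1p core ACCCNNACA in 0 and 3.34%, and the Rox1p core in 16.2% and 27.6%. The windows of *NIP1* (chrXIII:895527-895776, minus strand), *TIF4631* (chrVII:823709-823958, plus strand), *TEF4* (chrXI:282541-282790, plus strand) and *CAM1* (chrXVI:464051-464300, plus strand) are shown. *NIP1*, *TIF4631* and *CAM1* had the 3 largest changes between the strains with vanillin, and *TEF4* is the paralog of *CAM1*. Of other genes higher in BY4741(*yrr1*Δ) with vanillin, *GCD1* and *SUI2* hold the core and *TIF32* and *PRT1* do not. Capitals mark the RRPE core, which has no match in the *CAM1* window, and the *NIP1* window overlaps the coding sequence of YMR310C.
NIP1: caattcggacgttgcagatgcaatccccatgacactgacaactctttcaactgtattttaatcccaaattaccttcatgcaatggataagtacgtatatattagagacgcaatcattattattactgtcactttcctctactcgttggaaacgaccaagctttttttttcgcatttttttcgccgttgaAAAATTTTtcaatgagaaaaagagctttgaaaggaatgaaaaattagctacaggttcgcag
TIF4631: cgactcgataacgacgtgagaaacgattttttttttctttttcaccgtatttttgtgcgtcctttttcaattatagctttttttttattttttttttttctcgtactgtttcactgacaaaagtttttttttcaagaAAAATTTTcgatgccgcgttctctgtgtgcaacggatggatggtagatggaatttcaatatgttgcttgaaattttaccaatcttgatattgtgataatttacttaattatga
TEF4: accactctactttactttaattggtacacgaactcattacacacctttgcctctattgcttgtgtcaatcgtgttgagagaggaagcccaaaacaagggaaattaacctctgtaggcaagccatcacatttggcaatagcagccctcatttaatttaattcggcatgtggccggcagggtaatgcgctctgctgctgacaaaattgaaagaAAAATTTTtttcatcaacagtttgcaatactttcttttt
CAM1: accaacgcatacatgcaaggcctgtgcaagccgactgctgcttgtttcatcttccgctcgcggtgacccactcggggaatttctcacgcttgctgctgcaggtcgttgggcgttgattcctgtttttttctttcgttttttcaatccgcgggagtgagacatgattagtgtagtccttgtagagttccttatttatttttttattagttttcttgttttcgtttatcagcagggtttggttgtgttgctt

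The medians of the factors with and without the core were close in some comparisons and apart in others. Between the strains with vanillin the log2 fold change had a median of 0.35 in the 23 factors with the core and 0.37 in the 14 without it, although 21 of the 23 and 9 of the 14 were above 0. The medians were 0.20 with the core and 0.21 without it for vanillin in BY4741(*yrr1*Δ), -0.30 and -0.14 for vanillin in BY4741, -0.17 and -0.08 between the strains in SD, and 0.56 and 0.37 for the interaction, which was above 0 for 22 of the 23 and 9 of the 14. Over all genes the groups stood further apart, with a median of 0.36 for the 478 genes with the core, 360 of them above 0, against -0.04 for the 4994 genes without it. The same division gave 0.37 against -0.01 for vanillin in BY4741(*yrr1*Δ), -0.23 against -0.01 for vanillin in BY4741, 0.49 against -0.03 for the interaction and -0.15 against 0.01 between the strains in SD. These medians are descriptions of sequence matches in overlapping sets of libraries, and binding at the sites was not measured.

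Coding length moved with the strain difference as well. Across the 37 genes Spearman's rho between length and the log2 fold change with vanillin was 0.56, and across all 5506 genes it was 0.42, values that share the same libraries. The 11 factors of 2000 bases or longer had a median of 0.62, against 0.25 for the 1325 genes of that length, and the 10 factors under 1000 bases one of 0.08, against -0.25 for 2001 genes. The median of the factors was thus above that of all genes in both length classes, and long factors such as *NIP1*, *TIF4631*, *TIF32* and *YEF3* were above short ones. In SD rho was -0.32 across the factors and -0.22 across all genes. For vanillin it was 0.61 and 0.36 in BY4741(*yrr1*Δ) and -0.18 and -0.12 in BY4741, and for the interaction 0.53 and 0.40. The part of length in the strain difference was not tested.

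**Figure D4:**
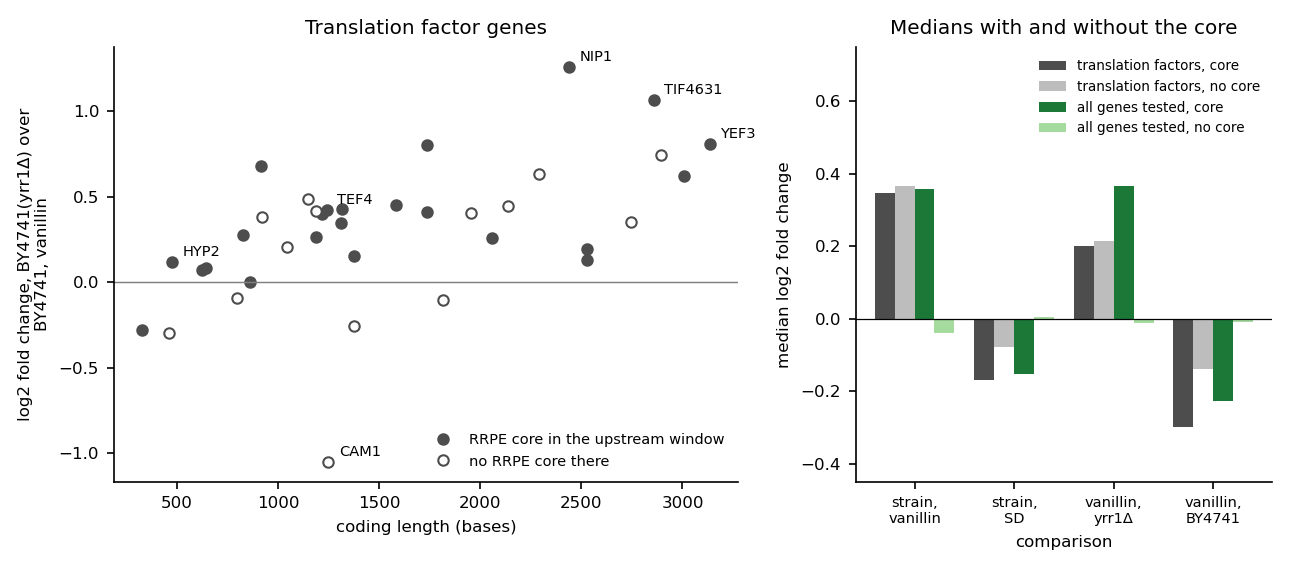
Left, log2 fold change of BY4741(*yrr1*Δ) over BY4741 with vanillin against coding length in bases for the 37 genes tested, filled where the upstream window holds the RRPE core. Right, median log2 fold change in 4 comparisons of the factors and of all genes with a window, with and without the core: over all genes the strain comparison with vanillin has a median of 0.36 with the core and -0.04 without it, while the factors have 0.35 and 0.37.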

How the data were processed

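Expected counts of 5782 genes in 8 libraries were analysed. The authors deposited for each library an unnormalized expected count and an FPKM value per gene. The aligner and counting tool are not given in the sources used here. The submitters' processing notes name genome build R64, the build of the RefSeq annotation used for positions and sequences. The authors' comparison tables (group means of FPKM, log2 ratios and a score) were not used. Expected counts were rounded and fitted in R 4.3.3 with edgeR 4.0.16 (filterByExpr, TMM, quasi-likelihood test) in 1 model of the 4 groups, with Benjamini-Hochberg FDR over the 5506 genes tested. Genes of all roles could be named; values per library are given for the gene pairs, the 3 largest changes and the 3 smallest p-values of each comparison and *NIP1* and *TIF4631*, and a few others singled out after their values were seen, and of other lists genes with an FDR of at most 0.05. Members and lists were chosen with earlier results of these data known.

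The alternatives were library size alone, DESeq2's size factors, no low-count filter, DESeq2 1.42.0, limma 3.58.1 on log2(FPKM + 1), only the 4 libraries compared, a replicate block, summed pairs, the study's limits, and each library left out in turn. On simulated data of 5482 genes, 45% of genes changed 2-fold and 95% of those changed 4-fold were recovered between the strains with vanillin, with 6.04% false calls, so 2-fold changes could be missed with 2 replicates. The correlation of replicate differences was -0.58 between the 2 SD groups and ran from -0.09 to 0.18 between the other groups. In SD, replicate 1 of one strain thus tended to resemble replicate 2 of the other. Cultures with the same number were not treated as pairs.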

Additional observations from a re-analysis of the deposited data

How the results depend on the processing

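The median log2 fold changes kept their direction under DESeq2's size factors, without the low-count filter and with a replicate block. In these settings 0 of the factor genes were called at an FDR of 0.05 in every comparison. In the same order, the shares of all genes called were 0.599%, 0.571% and 0.218% between the strains with vanillin. They were 0.0182%, 0.0173% and 0.0182% in SD and 11.2%, 9.86% and 7.26% for vanillin in BY4741(*yrr1*Δ). For vanillin in BY4741 they were 3.18%, 2.65% and 1.8%, and for the interaction 0.0908%, 0.0865% and 0%. The medians with the replicate block were 0.36 between the strains with vanillin, -0.13 in SD and 0.45 for the interaction. For vanillin they were 0.21 in BY4741(*yrr1*Δ) and -0.22 in BY4741. In the crossed pairing of the SD cultures, chosen after seeing the data, edgeR called 0 of the factor genes. With this pairing 3 of them had an unadjusted p under 0.05, against 0 in the main fit. The share of all genes in that fit is not given here. Between the strains with vanillin the count called was 1 with library size alone (0.581% of all genes), 6 with only the 4 libraries compared (5.8%), 4 with DESeq2 (4.86%) and 1 with limma on FPKM (0.908%). For vanillin in BY4741(*yrr1*Δ) it was 6 with library size alone (12.5% of all genes), 1 with DESeq2 (12%) and 4 with limma (11.6%). For vanillin in BY4741 it was 1 with each of these 3 (3.31%, 5.27% and 3.8%), and for the interaction 3 with DESeq2 (3.92%). The median between the strains with vanillin was 0.52 with library size alone and 0.51 with limma, that of vanillin in BY4741(*yrr1*Δ) 0.34 with limma, and that of the interaction 0.64 with library size alone and 0.66 with limma. With library size alone the median of all genes itself stood at 0.14 between the strains with vanillin, -0.13 for vanillin in BY4741 and 0.22 for the interaction, and the factors stood 0.38 above it in the first of these. With limma the median of all genes stood at 0.14 between the strains with vanillin, 0.15 for vanillin in BY4741(*yrr1*Δ) and 0.24 for the interaction. The factors stood 0.37, 0.19 and 0.42 above it. With each library left out in turn, the medians ran from 0.28 to 0.37 between the strains with vanillin and from -0.286 to 0.001 in SD. They ran from 0.08 to 0.33 for vanillin in BY4741(*yrr1*Δ), from -0.379 to -0.057 in BY4741 and from 0.32 to 0.62 for the interaction. Where the factors stood at 0.08 the median of all genes was 0.04. The sign of single genes was followed only for a subset of the genes and for the summed pairs. Among these, *TIF4631* (-0.839 to 0.045) and *CAM1* (-0.13 to 1.06) changed sign between the strains in SD when a library was left out. For vanillin in BY4741, *TEF4* (-0.187 to 0.067) and the summed eEF1A (-0.153 to 0.006) and eEF2 (-0.12 to 0.17) pairs did. The eEF2 pair did for vanillin in BY4741(*yrr1*Δ) (-0.055 to 0.407). Both pairs did for the interaction (-0.250 to 0.066 for eEF1A and -0.087 to 0.402 for eEF2). More of the factor genes crossed 0 than those named. Without SD replicate 2 of BY4741, 20 of 38 genes were above 0 between the strains in SD, against 8 of 37 with all libraries. For vanillin in BY4741 these counts were 13 of 38 and 6 of 37. The cause was not tested. With 2 cultures a group, 45% of simulated 2-fold changes between the strains with vanillin were recovered, and smaller changes were not simulated.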
